A study of Rattus norvegicus with 2 samples.

Results

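Matricellular proteins were compared between cultured rat endothelial cells of the endocardium, the lining of the heart chambers, and of the aorta. The set held 10 genes listed by name: Postn, Spp1, Sparc, Thbs1, Thbs2, Ccn1, Ccn2, Tnc, Mgp and Fn1. Every non-control probe set whose platform annotation gave exactly 1 symbol, equal to a listed name, was taken as a member. This gave 16 of 8740 probe sets, for 7 of the 10 genes, out of 4736 genes with such probe sets on the array. Thbs1, Thbs2 and Ccn2 were matched by no probe set of that kind, so 3 listed genes are not described. The list was chosen by the endocardial over aortic ratios of these same arrays, so the ratios below are a description and not a test.

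The endocardial cells and the aortic cells came from the same 2 rats, and the cells of each origin were pooled across the animals, kept apart from the other origin and carried through 2 passages at closely matched culture conditions and confluence. Total RNA of each pool was hybridised to 1 array of the type Affymetrix rat genome U34A, which gives an intensity for each probe set. The strain, age and sex of the rats and any treatment of the cells are not given in the sources used here. With 1 array per group there was no replicate, so no difference below was tested and none carries an error between cultures.

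Matricellular proteins are secreted proteins of the extracellular matrix that act mainly on the attachment and signalling of cells, through integrins, syndecans and bound growth factors, and contribute less to the mechanical scaffold. Fibronectin, the product of Fn1, is also a fibrillar scaffold protein and a main adhesive ligand of integrins. Many of these genes are low in resting adult vessels and high in embryonic valves, in healing tissue and in cultured adherent cells, and several are targets of transforming growth factor beta.

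Intensities were brought to the same trimmed mean on both arrays, and a floor of 635.4, set at the median over both arrays, separated measured from dim probe sets. The highest of 38 background controls, which have no intended target in the sample, reached 1742 and serves below as a stricter limit. The 9 hybridisation spikes, labelled transcripts added to each sample, had log2 ratios from -0.25 to 0.36, endocardial over aortic, with an SD of 0.17. The ratio of the 3' to the 5' probe set, a sign of RNA integrity, was 1.09 in endocardial cells and 1.11 in aortic cells for beta-actin, and 1.21 in endocardial cells and 1.17 in aortic cells for GAPDH. Among probe sets of the same gene with intensities above the highest background control on both arrays, log2 ratios had a pooled SD of 0.30 (385 genes, 867 probe sets). Among those above the floor on both arrays the pooled SD was 0.39 (625 genes, 1432 probe sets). Both values describe the probes and not the spread between cultures. Of 15 listed pan-endothelial genes 10 had a probe set and 5 were measured. Thrombomodulin, Thbd, was above the highest background control on both arrays with 1 of its 2 probe sets, at intensities of 2848.2 in endocardial cells and 3920.6 in aortic cells, and the endothelial nitric oxide synthase Nos3 (4 of 6 probe sets) and the VEGF receptor Flt1 (1 probe set) were above the floor on both. Flt1 did not reach the highest background control on either array, and Nos3 exceeded it only with 1 probe set on the aortic array (1831.6). Pecam1, Vwf, Kdr, Icam2 and Gja4 did not exceed the floor on either array. That the cells are endothelial is given by the labels. Among the 5 measured genes, Ets1 was at least 2.22-fold higher against the floor, Ace was lower (log2 ratio -1.16) and 3 lay between; at the highest background control neither passed 2-fold.

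Postn, Spp1 and Mgp were brighter on the endocardial array, while Ccn1, Sparc and Fn1 were at near-equal intensity and Tnc was dimmer. All 16 probe sets were above the floor on both arrays, and 15 were above the highest background control on both; the exception was Spp1 on the aortic array. Of the 7 genes with values, 3 were at least 2-fold brighter in endocardial cells, 0 were at least 2-fold lower and 4 lay between. Over all 2935 measured genes, 5.93% were at least 2-fold higher (174 genes) and 4.16% at least 2-fold lower (122 genes), and with the arrays scaled to the beta-actin and GAPDH controls these counts were 285 and 76. The members were chosen with these ratios known, so their count is not read against those shares. The median log2 ratio was 0.23 over the 7 genes, with a range from -0.48 to 2.98, and -0.02 over all measured genes. Less RNA of a gene per cell and fewer cells that make it cannot be told apart in RNA of a whole culture.

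**Figure D1:**
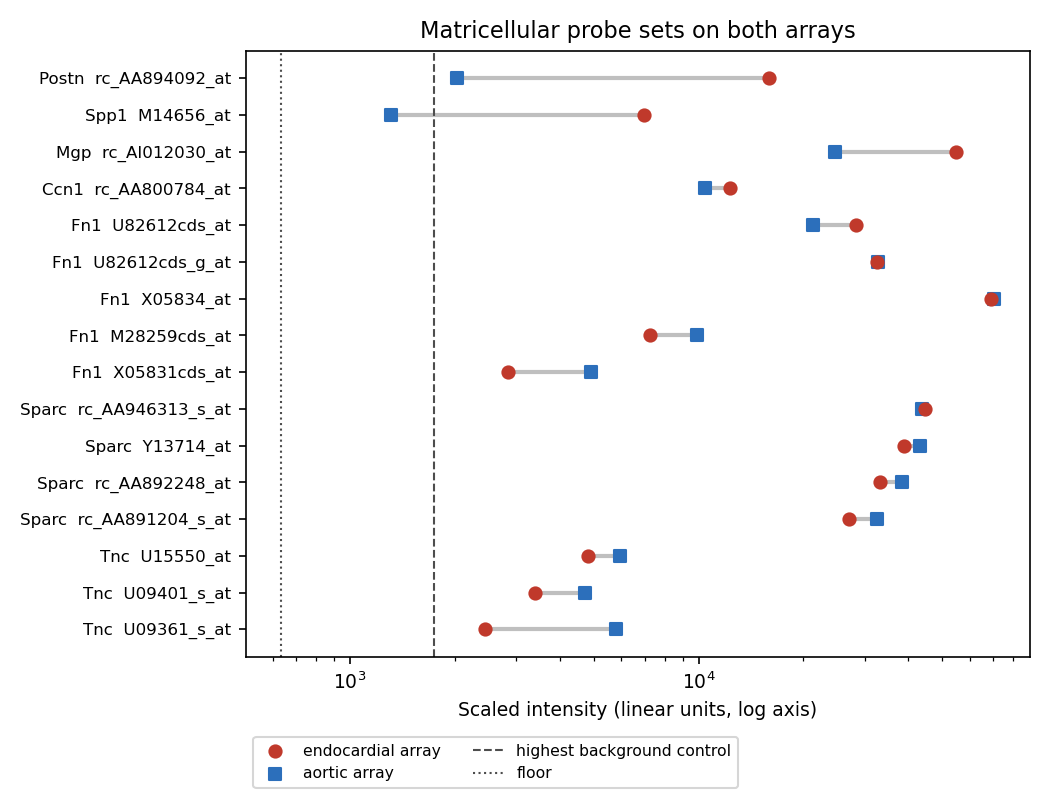
Scaled intensity (linear units on a log axis) of each of the 16 matricellular probe sets on the endocardial array (circles) and the aortic array (squares), with the floor of 635.4 (dotted) and the highest background control of 1742 (dashed). The wide gaps belong to Postn, Spp1, Mgp and 1 Tnc probe set, and the aortic value of Spp1 is the only one left of the dashed line.

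Postn encodes periostin, a fasciclin-domain protein that binds collagen and integrins and is known from developing heart valves and from fibrotic myocardium. Its probe set, rc_AA894092_at, had an intensity of 15939.7 in endocardial cells and 2026.3 in aortic cells. The endocardial value was thus high and the aortic value lay only a little above the highest background control, giving a log2 ratio of 2.98, or 7.87-fold. Among the 2457 probe sets above that control on both arrays this was the highest ratio, rank 1. Among all 4808 kept probe sets, which include those dim on 1 array, it held rank 13.

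Spp1 encodes osteopontin, a phosphorylated protein with an RGD integrin-binding motif that also binds CD44 and is made by bone cells, activated macrophages and injured vascular cells. Its probe set, M14656_at, had an intensity of 6992.2 in endocardial cells and 1312.9 in aortic cells. The log2 ratio was 2.41, or 5.33-fold. Because the aortic value was under the highest background control, the fold taken against that control is a lower bound of at least 4.01-fold.

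Mgp encodes matrix Gla protein, a small vitamin K-dependent protein that keeps arteries from calcifying in mice and binds bone morphogenetic proteins. Its probe set, rc_AI012030_at, had an intensity of 54841.5 in endocardial cells and 24640.1 in aortic cells. The gene was bright on both arrays, far from either limit, and the log2 ratio was 1.15, or 2.23-fold. It held rank 54 among the 2457 probe sets above the highest background control on both arrays, and rank 236 among all 4808 kept probe sets. The differences of Postn, Spp1 and Mgp each rest on 1 probe set, so no second probe set bears on them.

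Ccn1, formerly Cyr61, encodes a heparin- and integrin-binding protein of the CCN family that is induced early by serum, stretch and growth factors. Its probe set, rc_AA800784_at, had an intensity of 12278.3 in endocardial cells and 10456.1 in aortic cells. The log2 ratio of 0.23 lies within the SD of 0.30 among probe sets of the same gene, and 71.7% of measured genes had a lower one.

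Sparc encodes osteonectin, a collagen-binding protein that loosens cell attachment. Probe set rc_AA946313_s_at had an intensity of 44508.8 in endocardial cells and 43664.9 in aortic cells, and Y13714_at had 38962 in endocardial cells and 43120.8 in aortic cells. For rc_AA892248_at the intensities were 33074.1 in endocardial cells and 38415.8 in aortic cells, and for rc_AA891204_s_at they were 27005.2 in endocardial cells and 32494.3 in aortic cells. The 4 log2 ratios ran from -0.27 to 0.03, 3 of them below 0, with an SD of 0.13 and a median of -0.18. Sparc was thus bright on both arrays, and its 4 probe sets gave closely similar ratios; the median had the opposite sign with the brightest probe set alone (0.03) and with scaling to the beta-actin and GAPDH controls (0.13).

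Fn1 was measured by 5 probe sets, which did not give the same ratio. Probe set X05834_at had an intensity of 68860.7 in endocardial cells and 70433.9 in aortic cells, a log2 ratio of -0.03, and U82612cds_g_at had 32436.9 in endocardial cells and 32783.7 in aortic cells, a log2 ratio of -0.02. The probe set U82612cds_at, designed from the same sequence record as the preceding one, had 28321.7 in endocardial cells and 21301.5 in aortic cells, a log2 ratio of 0.41. The remaining probe sets were dimmer on the endocardial array. M28259cds_at had 7247.9 in endocardial cells and 9878.4 in aortic cells (log2 ratio -0.45), and X05831cds_at had 2836.8 in endocardial cells and 4921.8 in aortic cells (log2 ratio -0.79). None of the 5 reached 2-fold, the SD of their log2 ratios was 0.46 and the gene median of -0.03 changed sign with quantile normalization (0.10), centring (0.01), loess (0.07) and scaling to the beta-actin and GAPDH controls (0.28).

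Tnc encodes tenascin-C, a large hexameric glycoprotein that counteracts adhesion to fibronectin and appears in developing and injured tissue. All 3 of its probe sets were dimmer on the endocardial array, by different amounts. U09361_s_at had an intensity of 2434.3 in endocardial cells and 5792.4 in aortic cells, a log2 ratio of -1.25, and it was the only member probe set at least 2-fold lower. U09401_s_at had 3391 in endocardial cells and 4723 in aortic cells (log2 ratio -0.48), and U15550_at had 4831.4 in endocardial cells and 5966.2 in aortic cells (log2 ratio -0.30). The gene median was -0.48, and 15.4% of measured genes had a lower one. It stayed below 0 in the reported setting and in all 11 alternatives of processing. At the level of probe sets, 3 of the 16 were at least 2-fold higher and 1 was at least 2-fold lower, where 6.61% and 4.83% of all 4808 kept probe sets were.

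**Figure D2:**
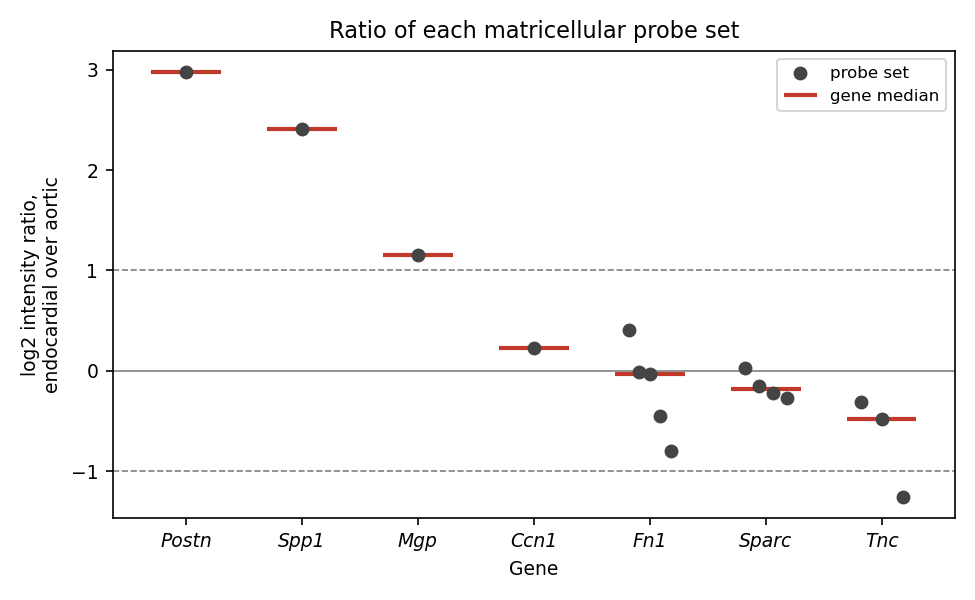
Log2 intensity ratio, endocardial over aortic, of each probe set (points) and the median of each gene (red bars), with dashed lines at a 2-fold difference. Postn (2.98), Spp1 (2.41) and Mgp (1.15) lie above the upper line, each on 1 probe set, and 1 of the 3 Tnc probe sets (-1.25) lies below the lower one.

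**Figure D3:**
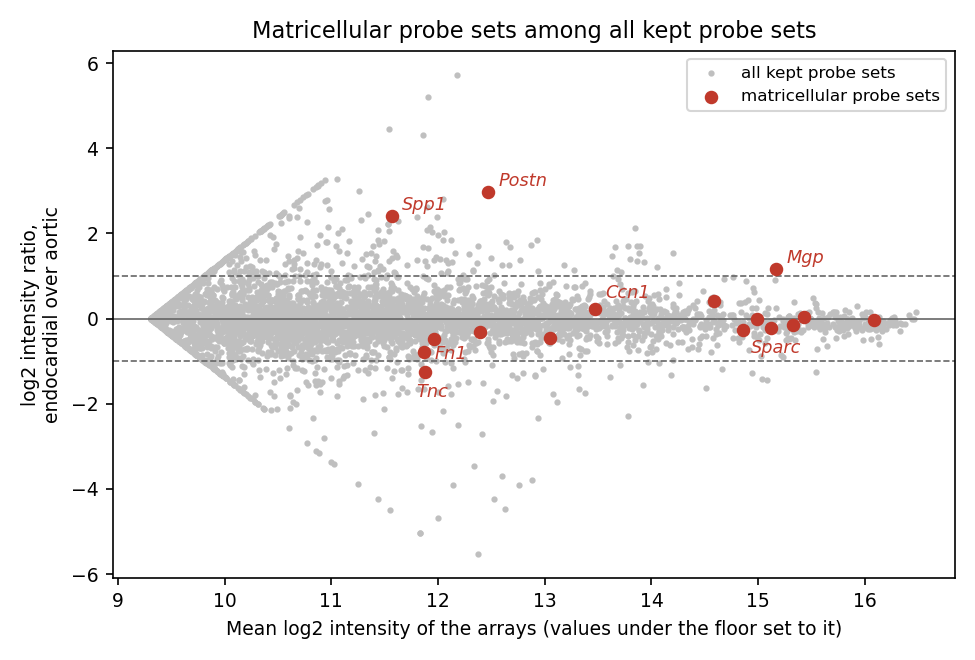
Log2 intensity ratio, endocardial over aortic, against the mean log2 intensity of the arrays for all 4808 kept probe sets (grey) and the 16 matricellular probe sets (red), with values under the floor set to it and dashed lines at a 2-fold difference. The matricellular probe sets above the upper dashed line are those of Postn, Spp1 and Mgp.

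RefSeq start-site windows of assembly GRCr8 were available for 7 of the 10 listed genes, Postn, Spp1, Sparc, Thbs1, Ccn1, Ccn2 and Tnc; Thbs2, Mgp and Fn1 had no entry. The 250 bases before the listed start site are shown for the higher pair, Postn and Spp1, and beside them for Ccn1, at near-equal intensity, and for Tnc, dimmer on the endocardial array. The windows are chr2:140677811-140678060 on the plus strand for Postn and, on the minus strand, chr14:5619805-5620054 for Spp1, chr2:237225690-237225939 for Ccn1 and chr5:82476132-82476381 for Tnc. Capitals mark the motifs found, each searched on both strands. The letters searched were TATAAA for the TATA box and, for the core of the binding site of TEAD factors, GGAATG. The core of the Runx site was searched in the form TGTGGT and also, as an accepted variant, in the form TGCGGT.
Postn: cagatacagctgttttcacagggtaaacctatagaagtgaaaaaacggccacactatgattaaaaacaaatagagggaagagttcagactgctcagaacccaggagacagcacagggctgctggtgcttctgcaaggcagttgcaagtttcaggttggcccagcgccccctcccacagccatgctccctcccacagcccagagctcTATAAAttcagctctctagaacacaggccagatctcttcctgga
Spp1: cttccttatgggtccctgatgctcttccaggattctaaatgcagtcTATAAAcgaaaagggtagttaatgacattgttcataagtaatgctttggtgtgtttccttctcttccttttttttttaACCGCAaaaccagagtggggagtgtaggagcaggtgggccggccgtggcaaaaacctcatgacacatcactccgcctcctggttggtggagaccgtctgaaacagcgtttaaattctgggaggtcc
Ccn1: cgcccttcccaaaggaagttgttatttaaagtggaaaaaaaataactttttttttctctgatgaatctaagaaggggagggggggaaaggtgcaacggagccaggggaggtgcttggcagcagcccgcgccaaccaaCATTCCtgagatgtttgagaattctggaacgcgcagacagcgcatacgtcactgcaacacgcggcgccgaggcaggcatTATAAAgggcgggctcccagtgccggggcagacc
Tnc: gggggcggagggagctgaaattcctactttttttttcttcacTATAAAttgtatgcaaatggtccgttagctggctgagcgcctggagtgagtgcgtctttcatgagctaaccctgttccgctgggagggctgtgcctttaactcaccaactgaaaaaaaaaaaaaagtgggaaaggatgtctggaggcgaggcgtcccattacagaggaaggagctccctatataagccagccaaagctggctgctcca

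The listed start site of Ccn1 is the outer end of the annotated gene. Those of Postn, Spp1 and Tnc lie 287, 891 and 66 bases inside it, so their windows fall partly or wholly inside the span of longer transcripts. The TATA box letters lay 44 to 39 bases before the start site in Postn and 34 to 29 bases before it in Ccn1, and farther upstream in Spp1 (204 to 199 bases) and Tnc (208 to 203 bases). They occurred in 5 of the 7 windows and in 12.9% of all 33469 RefSeq windows of that length. Only the exact letters TATAAA were searched. Other forms of a TATA box, such as the letters tatataa near the end of the Tnc window, were not recorded. The TEAD core occurred in Ccn1, Ccn2, Sparc and Thbs1, with 3 copies in Ccn2, and in 12.1% of all windows; its letters were not in the windows of Postn, Spp1 and Tnc. In Ccn1 it stands on the other strand, printed as CATTCC. The Runx core occurred in Spp1, on the other strand as ACCGCA, and in Sparc, and in 19.0% of all windows. Neither TGANTCA, the AP-1 site, nor the CArG box was in any of the 7 windows, against 6.34% and 1.50% of all windows. The motifs do not overlap one another, and a match of letters is a description and no evidence of binding.

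Beyond the named members, most other matricellular and adhesive matrix genes above the floor lay within 2-fold, several of them at background intensity. Counts in this and the following lists of partners stand beside the shares over all measured genes, 5.93% at least 2-fold higher and 4.16% lower. Of 27 listed genes 13 had a probe set and 8 were measured, of which 1 was at least 2-fold brighter in endocardial cells and 0 lower, with a median log2 ratio of 0.07 beside -0.02 over all measured genes. The higher gene was Fst, follistatin, a secreted binder of activin, with median intensities of 4650.6 in endocardial cells and 1466.6 in aortic cells over 2 probe sets and a log2 ratio of 1.72. Its aortic value lay under the highest background control for 1 probe set, so the fold against that control is at least 2.58. The lowest gene was Lgals1, the beta-galactoside-binding lectin galectin-1, at 37384.7 in endocardial cells and 61808.6 in aortic cells (log2 ratio -0.73). Its relative Lgals3, galectin-3, had 13587.5 in endocardial cells and 8001.9 in aortic cells (log2 ratio 0.76). The thrombospondin gene Thbs4 and the tenascin gene Tnr were under the floor on both arrays, as were the SPARC-like gene Sparcl1 and the bone matrix genes Ibsp and Bglap.

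Receptors of matricellular proteins were measured for 11 of 24 listed genes. Of these, 2 were at least 2-fold brighter in endocardial cells, 0 were lower and 9 lay between. There were 7 log2 ratios above 0, and the list median was 0.46 beside -0.02 over all measured genes. With the floor raised to the highest background control, 1 of 9 measured receptor genes was at least 2-fold higher and 0 were lower. Itga1, a collagen-binding integrin chain, had intensities of 11220.1 in endocardial cells and 4326.9 in aortic cells (log2 ratio 1.37). Itga8, an RGD-binding integrin chain known to bind fibronectin, osteopontin and tenascin-C, had 1858.4 in endocardial cells and 803.7 in aortic cells (log2 ratio 1.21); the aortic value was under the highest background control, against which the fold was at least 1.07. Itgb1, the beta chain that pairs with both, had 40927 in endocardial cells and 22322.5 in aortic cells, a log2 ratio of 0.87, short of 2-fold. Itgav, the alpha chain of vitronectin-type receptors that bind periostin and osteopontin, had a log2 ratio of -0.19, and Itgb3, its common partner, did not reach the highest background control on either array. The hyaluronan and osteopontin receptor Cd44 was the lowest of the list, at 4350.8 in endocardial cells and 6190.1 in aortic cells (log2 ratio -0.51). These values rest on the only 1 of its 4 probe sets that exceeded the floor. The thrombospondin receptor Cd47 (0.46) and the syndecans Sdc1 (0.68), Sdc2 (0.81) and Sdc4 (0.41) had gene log2 ratios above 0 that did not reach 2-fold. The 2 probe sets of Sdc1 differed, at 1.14 (2.21-fold) and 0.21.

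Upstream ligands and processing enzymes included both directions. Of 26 listed genes 13 were measured, of which 2 were at least 2-fold brighter in endocardial cells, 1 was lower and 10 lay between, with a median log2 ratio of 0.06. Both higher genes were ligands of the transforming growth factor beta family, known inducers of Postn, Ccn2, Tnc and Fn1. Tgfb3 had median intensities of 23987.6 in endocardial cells and 9350 in aortic cells over 2 probe sets, a log2 ratio of 1.36. Tgfb2 had 4231.3 on the endocardial array and was under the floor on the aortic array, so it was at least 6.66-fold higher against the floor and at least 2.43-fold against the highest background control. Tgfb1 had a log2 ratio of 0.91, with its aortic value under the highest background control, against which the fold was at least 1.76. The part of these ligands in the ratios of the members was not tested. The signal transducers of these ligands, Smad2 (-0.05), Smad3 (0.06) and Smad4 (-0.07), had log2 ratios near 0, with Smad3 below the highest background control in both kinds of cells. The lower gene was Lox, the collagen cross-linking enzyme whose activation periostin and fibronectin are known to assist, with median intensities of 17233 in endocardial cells and 49118 in aortic cells over 4 probe sets, a log2 ratio of -1.53. Ggcx, the carboxylase that modifies Mgp, had a log2 ratio of 0.13, against 1.15 for Mgp itself.

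**Figure D4:**
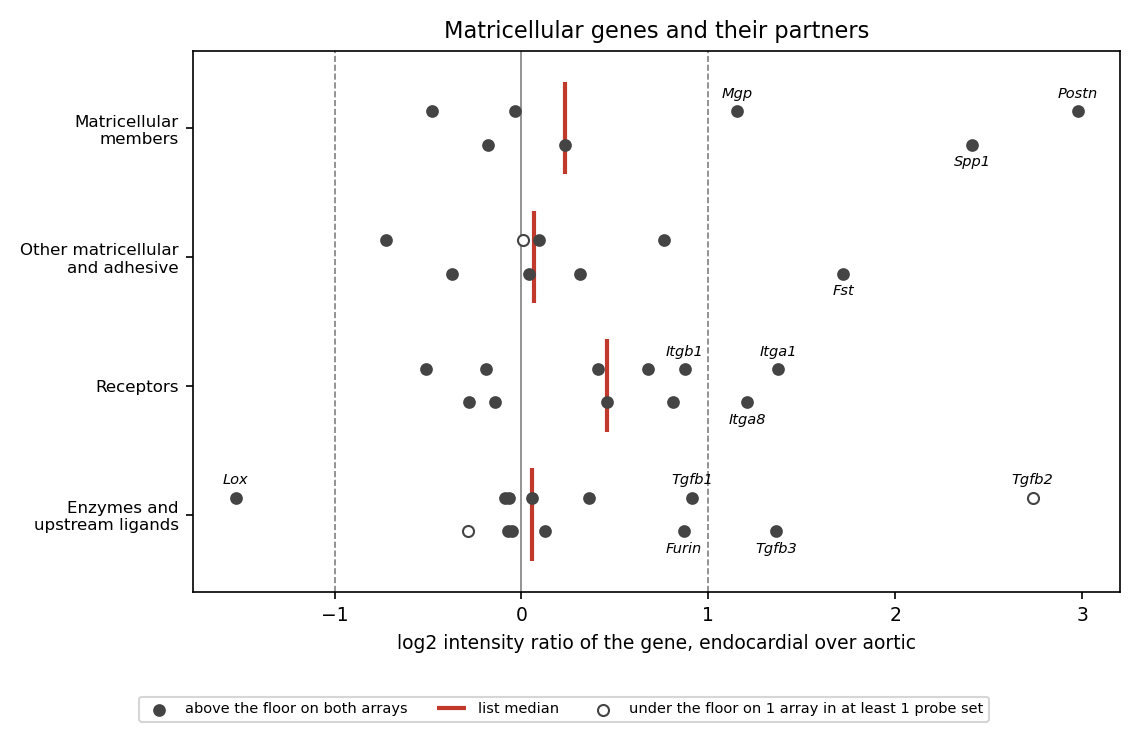
Log2 intensity ratio, endocardial over aortic, of each measured gene (points) in the matricellular set, in other matricellular and adhesive genes, in receptors and in processing enzymes and upstream ligands, with the list medians (red) and dashed lines at a 2-fold difference; open points had a value under the floor on 1 array. Postn, Spp1 and Tgfb2 lie farthest right and Lox farthest left.

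Marker lists of other cell types differed in direction. The counts of each list below stand beside 5.93% of all measured genes at least 2-fold higher and 4.16% lower. Of 19 listed macrophage and leukocyte genes, 13 had a probe set and 10 were measured; 6 of these were at least 2-fold brighter in endocardial cells and 0 lower, and the summed intensity of the list was 51286 in endocardial cells and 8022 in aortic cells. With the floor raised to the highest background control, 1 of 8 measured genes, Lyz2, was at least 2-fold higher. Lyz2, the macrophage lysozyme, made up most of that sum, at 33619.5 on the endocardial array and under the floor on the aortic array. Against the floor, Ctss was at least 5.31-fold, Cd53 at least 3.16-fold, RT1-Da at least 2.43-fold, Cd74 at least 2.42-fold and Fcgr2b at least 2.22-fold higher. RT1-Ba went the other way at a log2 ratio of -0.94, with its 3 probe sets at -1.27, -0.94 and 1.75. RT1-Db1 (0.05) and Ptprc (-0.09) were near 0. Cd14 was above the highest background control on both arrays, at 4070.4 in endocardial cells and 3245.7 in aortic cells. The listed genes Csf1r, Itgam and C1qb did not exceed the floor on either array, and the pan-leukocyte gene Ptprc did not exceed the highest background control on either. Cd68, Adgre1, Mrc1, Tyrobp, Fcer1g and Itgb2 of the same list had no probe set. Macrophages are a known source of Spp1, and their part in the Spp1 difference was not tested.

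Fibroblasts, smooth muscle cells and valve interstitial cells are known sources of Postn, Mgp and Tnc. Of 13 measured fibroblast genes (16 listed), 0 were at least 2-fold brighter in endocardial cells and 2 lower, Dcn and Lox, with a summed intensity of 399054 in endocardial cells and 521887 in aortic cells. All of the measured fibroblast genes other than Lum (0.21) and Loxl1 (0.25) had log2 ratios below 0. Of 10 measured smooth muscle genes (13 listed), 2 were at least 2-fold higher, Myl9 and Itga8, and 1 lower, Myh11, with a median log2 ratio of 0.46 (with the higher floor, 1 of 9 higher and 0 lower) and a summed intensity of 193704 in endocardial cells and 126344 in aortic cells. Of 13 listed cardiomyocyte genes 6 were measured, with 0 at least 2-fold higher and 1 lower, and summed intensities of 3410 in endocardial cells and 2519 in aortic cells. The lower gene, Myh6, did not reach the highest background control on either array. With the higher floor 1 cardiomyocyte gene was measured, with 0 at least 2-fold higher and 0 lower. Nppb, Actc1, Myl2, Myl3, Ryr2 and Pln were under the floor on both arrays. The 2 measured mesothelial and epicardial genes of 10 listed, Wt1 (1.09) and Aldh1a2 (at least 1.36-fold higher), had their aortic values under the highest background control, and the list summed to 1992 in endocardial cells and 1373 in aortic cells. The part of fibroblasts, smooth muscle cells and mesothelial cells in the ratios of Postn, Mgp and Tnc was not tested.

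**Figure D5:**
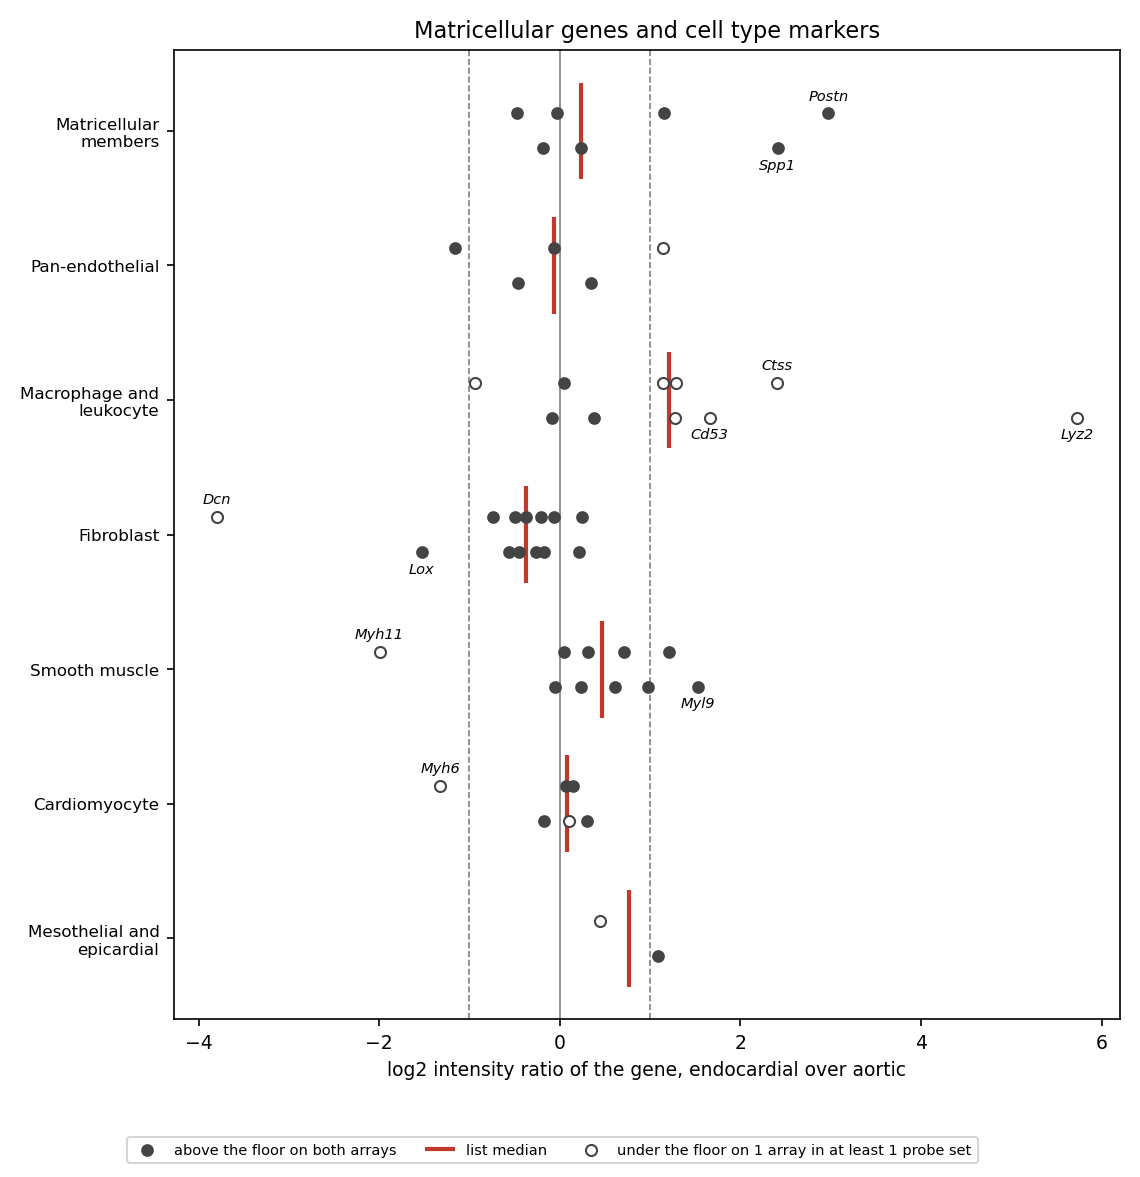
Log2 intensity ratio, endocardial over aortic, of each measured gene (points) in the matricellular set and in 6 cell type marker lists, with list medians (red) and dashed lines at a 2-fold difference; open points had a value under the floor on 1 array. The fibroblast median lies at -0.38, the smooth muscle median at 0.46 and the macrophage and leukocyte median at 1.21.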

How the data were processed

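The values deposited by the authors are linear intensities, with 1 value for each probe set on each array and some below 0. Per the labels, total RNA was hybridised to the Affymetrix rat genome U34A array, with the software behind the values not given in the sources used here. The settings files of the arrays differed in 2 of 41 fields, the fluidics module and the scan time, so those cannot be told apart from cell origin.

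The 59 control probe sets were set aside. The other 8740 were scaled to a shared 2% trimmed mean (factors 0.999 for the endocardial and 1.00 for the aortic array), values under the floor were set to it, and 4808 probe sets above it on at least 1 array were kept. The ratio was endocardial over aortic, and a gene took the median log2 ratio of its kept probe sets. A gene was counted at 2-fold (log2 ratio of 1). Gene symbols came from the platform annotation, and those of all 7 measured members matched RefSeq gene identifiers. Pairings were not checked by sequence. Listed members were all named, as were, in the lists of partners, genes at least 2-fold apart and the extremes; others were named as examples after their values had been seen. Members and lists were chosen with earlier results of these data known. Protein sequences planned for display were not used here. Python 3.11.15, numpy 2.4.6, pandas 2.3.3, scipy 1.17.1 and statsmodels 0.14.6 were used. The counting step was tested on simulated data. Alternatives were 9 settings of scaling, loess, floor, gene summary and probe set type, and 2 scalings to controls added after the data had been seen.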

Additional observations from a re-analysis of the deposited data

How the results depend on the processing

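The 3 genes at least 2-fold brighter in endocardial cells and the 0 at least 2-fold lower were the same counts in all 11 alternatives. Postn ranged from 2.63 to 3.29 in log2 ratio, Spp1 from 1.44 to 2.73 and Mgp from 1.13 to 1.47; Spp1 was lowest under a 75th percentile floor, which replaces its aortic value. The median over members ranged from 0.21 to 0.55. The 1 Tnc probe set at least 2-fold lower gave a count of 0 with plain probe sets, which leave it out, and of 0 with scaling to beta-actin and GAPDH, which shifted the median of all genes by 0.29. Against the median of all genes in that setting, Tnc stood at -0.43 and Sparc at -0.14. Over all genes the counts at least 2-fold higher and lower were 45 and 40 under a 75th percentile floor, 76 and 45 at the highest background control, 342 and 410 with no floor, and 285 and 76 with scaling to beta-actin and GAPDH. No paired analysis was possible because each group had 1 array. No replicate could be left out, so the error between cultures is unknown for every value.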

Other observations

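The probe sets of 2 members differed among themselves more than those of most genes. Among 79 genes with at least 3 probe sets above the highest background control on both arrays, the range of log2 ratios within a gene had a median of 0.34. Fn1, with a range of 1.21 over 5 probe sets, held rank 4 and Tnc, with 0.95 over 3, held rank 8, while Sparc, with 0.29 over 4, held rank 49. A gene with more probe sets has more chances of a wide range, and these ranks are a description. For Tnc the order of the arrays was the same in all 3 probe sets, whereas for Fn1 it was higher on the endocardial array in 1 and lower in 4.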
